A study of Mus musculus with 6 samples.

Results

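The genes described here encode the proteins of the mitochondrial ribosome. They were chosen by name, as every symbol that starts with Mrpl (large subunit) or Mrps (small subunit) followed by a digit, which gave 76 of the 23366 genes counted, 47 for the large and 29 for the small subunit. Messenger and other long RNA was sequenced from mouse CD4+ effector T cells of FVB/N strain background. T cells had been transferred into Rag-deficient hosts, which lack lymphocytes of their own, and 6 weeks later the CD4+ cells were collected from the mesenteric lymph nodes. They were sorted on rhodamine 123, a dye that the efflux pump Mdr1 exports: the Mdr1+ group is the dye-low fraction and the Mdr1- group the dye-high fraction, with 3 libraries each, numbered 1 to 3 in both groups. Both groups share the host, the tissue and the time, and the group is a sort on dye signal in cells that the labels otherwise describe alike. Whether the dye signal differed through anything besides export by Mdr1 was not tested. Whether the numbers stand for separate mice is not in the labels, and the p-values therefore describe only how far these samples spread, which may be technical.

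The mitochondrial ribosome translates the few messages of the mitochondrial genome, which encode membrane subunits of the respiratory chain and the ATP synthase. All its proteins are encoded in the nucleus, made in the cytosol and imported, and then assembled on ribosomal RNA transcribed inside the organelle. The small subunit reads the message at the decoding centre, and the large subunit holds the peptidyl transferase centre and the exit tunnel. In T cells, mitochondrial translation is known for its role in the growth that follows activation and in effector function.

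The libraries held 2220691 to 20771456 counts in genes. A floor of 3 counts corresponds to 0.144 to 1.35 CPM (counts scaled to a common library total), for counting error only. The Mdr1+ library of replicate 3 was the shallowest, and a principal component with 59.2% of the variance set it against the remaining 5 libraries. Its median member had 31.5 counts, against 96.5 to 420 in the other libraries, and 7 members had 3 or fewer counts in it. The summed T cell markers were at 4780 to 5980 CPM in the Mdr1+ and 5120 to 5730 CPM in the Mdr1- libraries. Of 7 myeloid markers, 6 were above 1 CPM in the Mdr1- library of replicate 3, where the list summed to 84.4 CPM. The list's range was 1.71 to 84.4 CPM in Mdr1- and 0.433 to 5.85 in Mdr1+ libraries, and Csf1r, S100a8 and S100a9 had no count in any Mdr1+ library. Dendritic cell markers, led by Cd74, summed to 23.0 to 40.5 CPM in Mdr1+ and 55.1 to 82.4 in Mdr1- libraries. Itgax, Flt3 and Xcr1 of that list reached at most 2.75 CPM in any library. B cell markers summed to 10.5 to 23.5 CPM in Mdr1+ and 6.36 to 12.2 in Mdr1- libraries. NK and cytotoxic T cell markers, led by Klrb1c, summed to 16.2 to 20.9 CPM in Mdr1+ and 11.3 to 15.4 in Mdr1- libraries. Stroma and endothelium markers summed to 112 to 183 CPM in Mdr1+ and 127 to 138 in Mdr1- libraries, nearly all of it Pecam1 (110 to 181 over the 6 libraries), and Acta2 of that list fell in Mdr1+ cells (log2 fold change -4.70 ± 0.78, edgeR adjusted p 0.018). The part of these cells in the results below was not tested.

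Members of both subunits were transcribed at modest levels that differed widely between genes. Levels are given per length, as TMM-scaled CPM (CPM after edgeR's library scaling) per kb of the principal transcript in the GENCODE M21 annotation, averaged over the 6 libraries. The large-subunit median was 12.8 CPM per kb, with a middle range of 6.98 to 22.4, and the small-subunit median was 9.86, with a middle range of 5.19 to 18.3. Mrpl33, the counterpart of bacterial protein L33, had the highest level of all members at 95.6 CPM per kb (55.2 to 122 over libraries). Mrpl24, a counterpart of L24 at the exit tunnel, followed at 57.2 (40.9 to 72.4), and the ranges of these neighbours overlap. Mrps9 was the highest small-subunit gene at 30.7 CPM per kb (15.6 to 39.3), followed by Mrps23 at 24.9 (19.8 to 31.4), which overlap as well. Mrpl48 was lowest in the large subunit at 0.649 CPM per kb and Mrps33 lowest in the small subunit at 0.385.

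**Figure D1:**
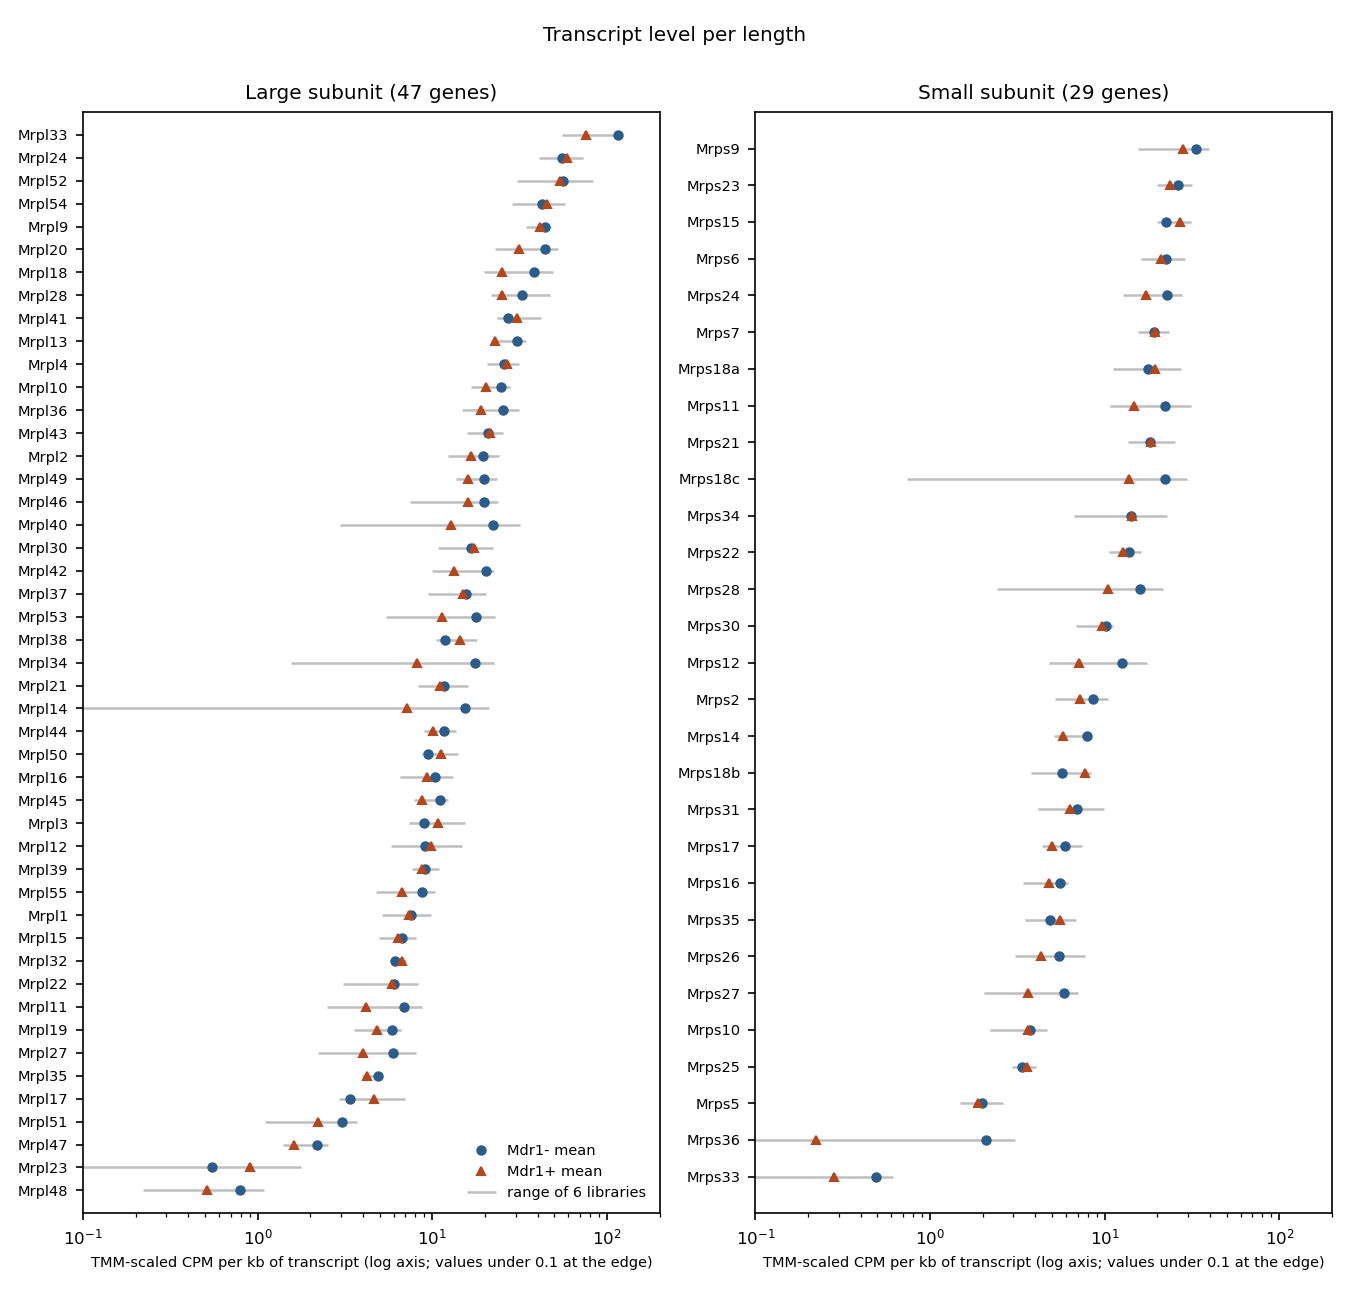
Transcript level per length of all 76 members, by subunit, on a log axis in TMM-scaled CPM per kb; blue circles are Mdr1- means and orange triangles Mdr1+ means of 3 libraries, and grey lines span the 6 libraries. Mrpl33 tops the large subunit at 95.6 and Mrps9 the small subunit at 30.7, and Mrpl48 and Mrps33 are the lowest of each at 0.649 and 0.385.

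Sequence shared between genes limits some of these levels. Of each member's 50-base words, over 20% also occur in another gene's transcripts for 17 members, and none for 28. The share was highest in Mrpl53 (100%), Mrpl23 (76.4%), Mrps25 (73.9%), Mrps18b (63.7%) and Mrps34 (52.4%). It was 38.0% in Mrpl24 and 30.3% in Mrpl33, the members with the highest levels per length. Words were matched on both strands, so a gene that overlaps the member at the same place also counts as sharing. Reads there can have a unique position, so the share does not measure reads without one. How the counting treated reads of shared words is not known beyond the class of reads without a unique position, so these genes are uncertain in level. Mrpl23, Mrps33 and Mrps36 had too few counts to be tested. Mrpl23 had 4, 26 and 0 counts in Mdr1+ replicates 1, 2 and 3, and 1, 6 and 3 in the Mdr1- replicates. Mrps33 had 0, 10 and 1 counts in Mdr1+ and 3, 7 and 4 in Mdr1- replicates. Mrps36, whose protein is now placed with the oxoglutarate dehydrogenase complex, had 0, 10 and 0 counts in Mdr1+ and 5, 25 and 10 in Mdr1- replicates. These 3 genes sat near the floor in most libraries, and 73 members, 46 large and 27 small, were tested.

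No member passed the test between Mdr1+ and Mdr1- cells in the fit without a replicate block. The test was edgeR's quasi-likelihood F test with Benjamini-Hochberg adjustment over all 10897 genes tested and a threshold of 0.05, and it called 2.22% of all genes. Of the 73 tested members, 2 had an unadjusted p under 0.05, Mrpl18 and Mrpl33, against 11.9% of all genes. DESeq2 called 0 members and 4.53% of all genes. Libraries with the same number deviated together, so the fit was also run with the replicate number as a block. With the block, 2 large-subunit members and 0 small-subunit members fell in Mdr1+ cells, which is 2.74% of the members tested, against 6.57% of all genes lower and 12.4% called in either direction. The members' share of calls was thus below that of all genes in each of these fits.

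Mrpl33 had 38.2, 43.4 and 26.4 TMM-scaled CPM in Mdr1+ replicates 1, 2 and 3, and 53.7, 58.5 and 54.0 in the Mdr1- replicates. Every Mdr1+ library was below every Mdr1- library. Its log2 fold change, Mdr1+ over Mdr1-, was -0.60 ± 0.21 (SE, 3 libraries a group), with an adjusted p of 0.28 in edgeR without the block. With the block the log2 fold change was -0.61 ± 0.16 and the edgeR adjusted p 0.037.

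Mrpl18, a protein of the central protuberance of the large subunit, had 24.1, 37.8 and 29.7 TMM-scaled CPM in Mdr1+ replicates and 36.2, 60.1 and 43.8 in Mdr1- replicates. The groups overlap, since Mdr1+ replicate 2 lay above Mdr1- replicate 1, but within each number the Mdr1+ library was the lower. The log2 fold change was -0.60 ± 0.26 with an edgeR adjusted p of 0.39, and -0.61 ± 0.14 with an adjusted p of 0.024 under the block. With replicate 2 left out of the blocked fit neither gene passed, at edgeR adjusted p of 0.26 for Mrpl18 and 0.068 for Mrpl33, and without replicate 1 Mrpl18 was at 0.063. Mrpl18 overlaps exons of Tcp1, a chaperonin gene on the other strand. The strand setting of the counting is not given in the sources used here, so reads in the overlap cannot be told from those of Tcp1. Tcp1 was at a mean of 276 TMM-scaled CPM in Mdr1+ and 315 in Mdr1- cells, a log2 fold change of -0.19 ± 0.16 (edgeR adjusted p 0.71).

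More members were called in the blocked fit when replicate 3 was left out. Without that number the blocked fit called 15 members, 11 of the large and 4 of the small subunit, and all 15 fell in Mdr1+ cells. This is 20.5% of the 73 members, against 12.1% of all genes called lower and 22.2% called in either direction in the same fit. The large-subunit genes were Mrpl10, Mrpl11, Mrpl13, Mrpl14, Mrpl18, Mrpl28, Mrpl33, Mrpl34, Mrpl40, Mrpl42 and Mrpl45, with log2 fold changes of -0.78 (Mrpl34) to -0.38 (Mrpl10). The small-subunit genes were Mrps11 (-0.66), Mrps12 (-0.75), Mrps14 (-0.51) and Mrps26 (-0.63). Mrpl18 and Mrpl33 were among them, at edgeR adjusted p of 0.0087 and 0.016. This fit was added after the data were seen and rests on 2 libraries a group.

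**Figure D2:**
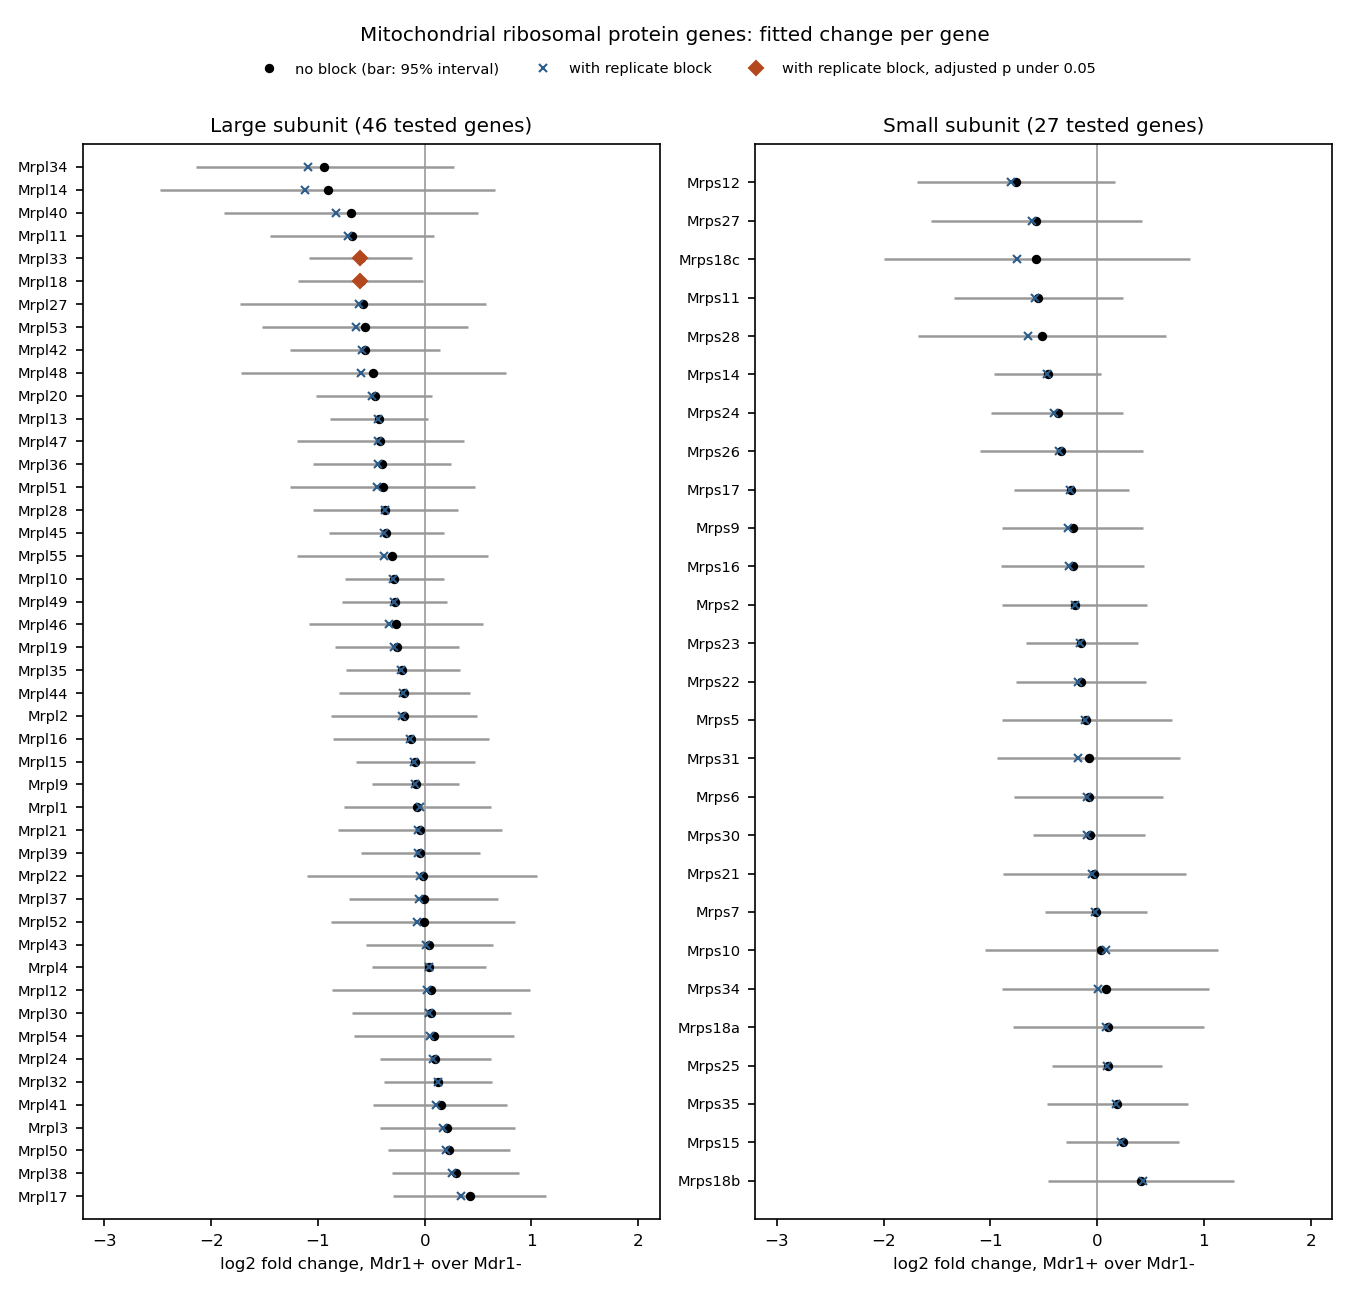
Fitted log2 fold change, Mdr1+ over Mdr1-, of the 46 large-subunit and 27 small-subunit genes tested, with black points and 95% intervals from the fit without the block, crosses from the blocked fit, and orange diamonds for the 2 genes called in the blocked fit, Mrpl33 and Mrpl18. Most points lie to the left of 0, and all unblocked intervals but those of Mrpl33 and Mrpl18 reach across it.

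As a family, the members' fitted changes lay slightly below 0 in both subunits. The large-subunit median log2 fold change was -0.20 (range -0.94 to 0.42), with 34 of 46 genes below 0, and the small-subunit median was -0.15 (range -0.76 to 0.41), with 20 of 27 below 0. Over all genes tested the median was 0.04, with 45.8% below 0, against 74.0% of the members. With the block, the medians were -0.21 and -0.18. Of the 73 members, 34 were lower in Mdr1+ in all 3 same-numbered pairs, which is 46.6% against 24.6% of all genes. The members higher in all 3 pairs numbered 3, against 3072 of all 10897 genes tested. Groups did not overlap for 5 members, all lower in Mdr1+, which is 6.85% of members against 11.0% of all genes lower, and 19.7% in either direction. Those were Mrpl13, Mrpl20, Mrpl33, Mrpl47 and Mrps14, with log2 fold changes of -0.43, -0.47, -0.60, -0.42 and -0.46. The 95% interval of the unblocked change stayed within 2-fold for 45 of 73 members, or 61.6%, against 57.8% of all genes. These counts and medians are descriptions with no test.

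The medians moved with single libraries. Replicate 2 was the highest in both groups for 52 of 73 members (71.2%, against 25.8% of all genes). Without the Mdr1+ library of replicate 2 the large and small medians were -0.35 and -0.37, and without the Mdr1- library of replicate 2 they were -0.08 and -0.01. Without the Mdr1- library of replicate 1 the small median was -0.27, and without that of replicate 3 the large median was -0.31. With whole numbers left out, the medians ranged from -0.27 to -0.19 and from -0.22 to -0.18. The median of all genes stayed between -0.03 and 0.04 in these fits.

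Summed over the tested members, the large subunit was at 912, 1150 and 917 TMM-scaled CPM in Mdr1+ replicates 1, 2 and 3, and at 1050, 1320 and 1000 in the Mdr1- replicates. The small subunit was at 441, 545 and 406 in Mdr1+ and at 489, 629 and 448 in Mdr1- replicates. The groups overlap in both sums, through replicate 2. Within each number the Mdr1+ library was lower, by ratios of 0.870, 0.872 and 0.916 for the large and 0.901, 0.866 and 0.904 for the small subunit. The group means were 992 ± 135 and 1120 ± 170 (SD, n = 3) for the large subunit and 464 ± 72.6 and 522 ± 94.9 for the small one, a difference smaller than the SD in both. The ratio of large to small sums was 2.14 ± 0.102 in Mdr1+ and 2.16 ± 0.0711 in Mdr1- libraries, so the subunits kept about the same proportion in both groups. In bulk samples, fewer cells of a type and less RNA per cell cannot be told apart.

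**Figure D3:**
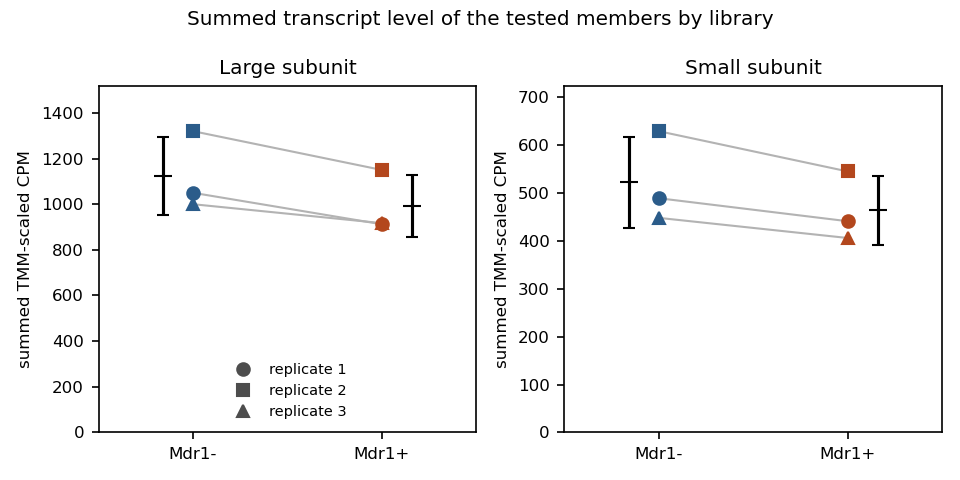
Summed TMM-scaled CPM of the tested large-subunit and small-subunit genes in each library, with same-numbered libraries joined, and group mean ± SD (n = 3) beside the points; axes start at 0. Each line falls from Mdr1- to Mdr1+, while the Mdr1+ library of replicate 2 lies above the Mdr1- libraries of replicates 1 and 3.

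Proteins with a bacterial counterpart had a median of -0.21 over 29 large-subunit genes and -0.23 over 16 small-subunit genes. Mrpl34, the counterpart of the small protein L34, had 5.65, 8.37 and 0.943 TMM-scaled CPM in Mdr1+ and 9.71, 13.7 and 8.32 in Mdr1- replicates. Mdr1+ replicate 3 rests on 2 counts, and the groups overlap narrowly. Its log2 fold change of -0.94 ± 0.53 did not pass (edgeR adjusted p 0.56). Mrpl14, at the interface between the subunits, had 4.98, 8.83 and 0 in Mdr1+ and 7.81, 13.7 and 8.32 in Mdr1- replicates. The 0 stands for no count where the floor is 1.35 CPM, and the log2 fold change was -0.91 ± 0.69 (edgeR adjusted p 0.68). At the other end, Mrpl17 had 21.3, 29.1 and 50.9 in Mdr1+ and 21.5, 28.6 and 23.6 in Mdr1- replicates. Only the Mdr1+ library of replicate 3 was high, and the log2 fold change was 0.42 ± 0.32 (edgeR adjusted p 0.68).

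The stalk of the large subunit, which recruits the translation factors, is built on Mrpl10, Mrpl11 and Mrpl12. Mrpl11 had 12.3, 18.0 and 7.55 TMM-scaled CPM in Mdr1+ and 17.9, 26.6 and 18.7 in Mdr1- replicates. Only Mdr1+ replicate 2 reached the lowest Mdr1- library, and the log2 fold change was -0.68 ± 0.34 (edgeR adjusted p 0.49; 0.073 with the block). Mrpl10 was at -0.29 ± 0.20 and Mrpl12 at 0.06 ± 0.41. Mrpl24, the most abundant member before dividing by length, had 84.9, 97.0 and 54.7 in Mdr1+ and 78.2, 81.9 and 62.5 in Mdr1- replicates. The groups overlap widely, and the log2 fold change was 0.10 ± 0.23 (95% interval -0.42 to 0.62). Mrpl9, the next, was at -0.08 ± 0.18. Around the core and exit tunnel, Mrpl3 was at 0.21 ± 0.28, Mrpl4 at 0.04 ± 0.23 and Mrpl22 at -0.02 ± 0.48. Mrpl45, which lies at the tunnel exit and ties the ribosome to the inner membrane, was at -0.36 ± 0.24. Mrpl32, whose precursor must be cleaved by the m-AAA protease before it is built in, was at 0.12 ± 0.22, and Mrpl44, a protein related to ribonuclease III, at -0.19 ± 0.27. None of these passed on all 6 libraries, with or without the block.

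Of the proteins listed here as found only in mitochondrial ribosomes, the fitted changes had medians of -0.19 over 17 large-subunit genes and -0.08 over 9 small-subunit genes. The small-subunit list includes Mrps18b, at 0.41, although it is a relative of bacterial S18. Mrpl40 had 17.6, 27.9 and 3.77 TMM-scaled CPM in Mdr1+ and 25.2, 40.7 and 19.0 in Mdr1- replicates. Mdr1+ replicate 3 was far the lowest, and the log2 fold change was -0.69 ± 0.53 (edgeR adjusted p 0.68) without the block, -0.83 ± 0.28 (0.090) with it. Mrpl40 passed where DESeq2 was given the block, at an adjusted p of 0.044. Without the Mdr1+ library of replicate 3 the unblocked value was -0.34. Mrpl38 and Mrpl50 were at 0.29 ± 0.26 and 0.23 ± 0.25, the highest of the large subunit after Mrpl17.

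In the small subunit, Mrps12, at the decoding centre, had the lowest fitted change. It had 5.15, 9.39 and 4.24 TMM-scaled CPM in Mdr1+ and 8.15, 15.5 and 9.85 in Mdr1- replicates. The groups overlap through Mdr1+ replicate 2, and the log2 fold change was -0.76 ± 0.41 (edgeR adjusted p 0.53; 0.11 with the block). Mrps27 was at -0.57 ± 0.44, Mrps11 at -0.55 ± 0.35 and Mrps28 at -0.52 ± 0.51, the last with 4 counts in Mdr1+ replicate 3. The highest were Mrps18b at 0.41 ± 0.39, Mrps15 at 0.24 ± 0.23 and Mrps35 at 0.19 ± 0.29. The most abundant small-subunit genes before dividing by length were at -0.23 ± 0.29 (Mrps9), -0.01 ± 0.21 (Mrps7) and -0.15 ± 0.23 (Mrps23).

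Mammals carry 3 relatives of bacterial S18, and their fitted changes differed in sign without any of them passing. Mrps18c was at -0.57 ± 0.64, with 1 count in Mdr1+ replicate 3. Mrps18b was at 0.41 and Mrps18a at 0.10 ± 0.40. Mrps18a and Mrps30 (-0.07 ± 0.23) carry small-subunit names and are built into the large subunit; counting them there left the medians at -0.19 and -0.15.

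**Figure D4:**
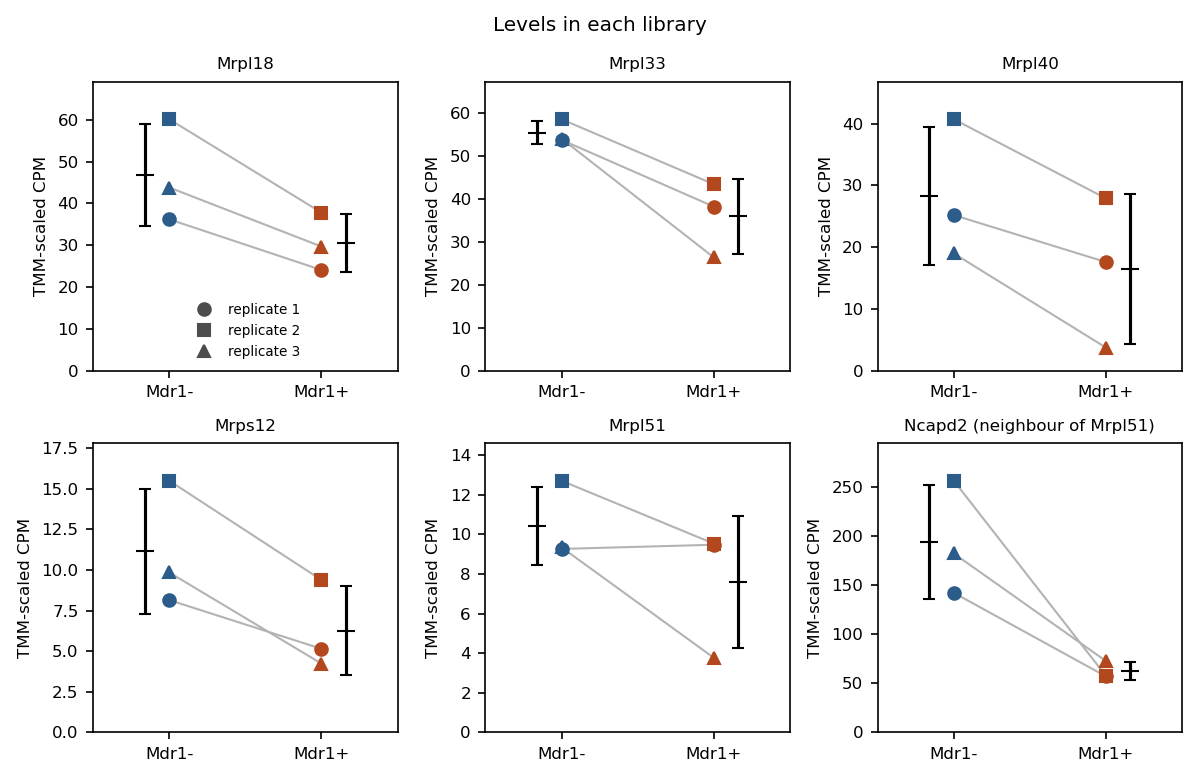
TMM-scaled CPM in each library for Mrpl18, Mrpl33, Mrpl40, Mrps12, Mrpl51 and Ncapd2, the gene that starts beside Mrpl51, with same-numbered libraries joined and group mean ± SD (n = 3) beside the points; axes start at 0. Mrpl33 and Ncapd2 separate the groups, and Mrpl40 is lowest in the Mdr1+ library of replicate 3, at 3.77.

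Upstream sequences were read for the members in RefSeq's promoter windows (250 bases before to 50 after the start, build GRCm38.p6), where 67 of 76 members matched, with 73 windows. They are shown for the 2 genes called with the block, for Mrpl32, which had the most matches to the NRF1 motif, and for Mrpl51, which starts head to head with Ncapd2. Each run is the 250 bases before the start, 5′ to 3′ on the gene's strand, and capitals mark the motifs searched on both strands: ETS (CCGGAAG), NRF1 (GCGCATGC), YY1 (AAGATGGC) and the TATA box (TATAAA). Mrpl33 lies at chr5:31613701-31613950 on the + strand, Mrpl18 at chr17:12916092-12916341 on the - strand, Mrpl32 at chr13:14613038-14613287 on the - strand and Mrpl51 at chr6:125191950-125192199 on the + strand.
Mrpl33: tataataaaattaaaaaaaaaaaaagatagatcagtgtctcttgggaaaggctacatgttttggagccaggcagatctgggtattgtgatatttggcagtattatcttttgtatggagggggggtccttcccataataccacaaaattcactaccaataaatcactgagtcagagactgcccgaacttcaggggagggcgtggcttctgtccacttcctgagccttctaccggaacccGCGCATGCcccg
Mrpl18: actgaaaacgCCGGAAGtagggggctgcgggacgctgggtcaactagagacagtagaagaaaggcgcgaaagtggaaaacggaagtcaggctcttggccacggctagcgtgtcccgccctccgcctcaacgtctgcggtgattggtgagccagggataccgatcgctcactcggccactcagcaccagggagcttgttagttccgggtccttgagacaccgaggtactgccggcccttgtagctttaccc
Mrpl32: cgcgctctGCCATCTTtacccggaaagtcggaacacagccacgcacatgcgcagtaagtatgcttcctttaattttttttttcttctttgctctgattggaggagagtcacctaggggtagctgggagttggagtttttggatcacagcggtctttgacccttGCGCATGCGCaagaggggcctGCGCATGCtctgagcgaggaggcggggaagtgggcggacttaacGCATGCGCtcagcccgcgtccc
Mrpl51: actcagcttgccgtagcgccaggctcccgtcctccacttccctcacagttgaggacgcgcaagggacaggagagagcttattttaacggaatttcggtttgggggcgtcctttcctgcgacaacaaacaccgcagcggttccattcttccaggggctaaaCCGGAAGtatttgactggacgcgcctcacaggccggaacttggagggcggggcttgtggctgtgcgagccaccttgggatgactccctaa
The NRF1 match of Mrpl33 ends 5 bases before the start and the ETS match of Mrpl18 ends 234 bases before it. Mrpl32 has 4 NRF1 matches, 2 of which overlap each other, and a YY1 match, and Mrpl51 has an ETS match that ends 84 bases before the start.

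The ETS motif was in 32.9% of the member windows against 8.86% of the windows of all genes, YY1 in 16.4% against 2.75%, NRF1 in 11.0% against 2.71%, and TATA in 6.85% against 13.6%. All genes here means 32851 windows of 27025 RefSeq genes, whether or not they were counted or tested in these libraries. Member windows were richer in G and C, at 58.9% against 53.8%. ETS was in 28.3% of large-subunit and 40.7% of small-subunit windows, and NRF1 in 15.2% and 3.70%. Cytosolic ribosomal protein windows held ETS in 34.7% and complex I windows in 11.8%. A match is a description of these letters and not a site of binding.

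A gene that starts close by on the other strand was annotated within 1000 bases for 17 members, and 16 of these neighbours were tested. Of the 16, 2 passed in either fit, Ncapd2 and Pnpla7, and the others passed in neither. Of all genes, 2.22% were called without the block and 12.4% with it. Ncapd2, a condensin subunit of dividing cells that starts 100 bases from Mrpl51, fell in Mdr1+ cells. It had 57.0, 57.5 and 72.6 TMM-scaled CPM in Mdr1+ and 142, 256 and 182 in Mdr1- replicates, with no overlap. The log2 fold change was -1.64 ± 0.24 (edgeR adjusted p 0.0095; 0.00057 with the block). Mrpl51 itself had 9.47, 9.53 and 3.77 in Mdr1+ and 9.26, 12.7 and 9.34 in Mdr1- replicates. Its groups overlap, and the log2 fold change was -0.39 ± 0.38 (edgeR adjusted p 0.75). Pnpla7, beside Mrpl41, passed with the block (0.59, edgeR adjusted p 0.0064), and Mrpl41 was at 0.15. Sars2, the mitochondrial seryl-tRNA synthetase that starts 172 bases from Mrps12, was at -0.55 ± 0.28, beside -0.76 for Mrps12.

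In 16 members, exons overlap a gene on the other strand, and with the strand setting unknown the reads in the overlap cannot be told apart. Eme1, a DNA repair gene that overlaps Mrpl27, fell with a log2 fold change of -2.20 ± 0.46 (edgeR adjusted p 0.044), and Mrpl27 was at -0.58. Actl6a, which overlaps Mrpl47, was at -0.56 ± 0.18 (edgeR adjusted p 0.21; 0.014 with the block), and Mrpl47 at -0.42. Mtbp, which overlaps Mrpl13, was at -0.57 ± 0.21 (edgeR adjusted p 0.30; 0.046 with the block), and Mrpl13 at -0.43. These partners are named because they passed in either fit, and the blocked fit called 12.4% of all genes. The other tested partners passed in neither fit, with log2 fold changes from -0.56 (Ndufb5) to 0.31 (Ighmbp2). Whether reads of any partner entered the members' counts was not tested.

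Other groups of the mitochondrial translation system were set beside the ribosomal proteins. No gene of these lists passed edgeR without the block, and DESeq2 called none of them. Of their genes 2 had an unadjusted p under 0.05, against 11.9% of all genes. The 7 mitoribosome proteins under other names had a median log2 fold change of -0.09, with Aurkaip1 at -0.42 ± 0.22 and Ict1, a peptidyl-tRNA hydrolase built into the large subunit, at -0.55 ± 0.36. The 12 translation factors had a median of -0.05, with the elongation factor gene Tsfm at -0.49 ± 0.34 and Gfm2, a factor of ribosome recycling, at -0.27 ± 0.18. The 20 tested synthetase and amidotransferase genes had one of 0.05, with Sars2 at -0.55 ± 0.28 and Mars2 at 0.36 ± 0.20. The 14 tested genes of mitochondrial DNA maintenance and transcription had a median of 0.02, with Tfam, the packaging factor of mitochondrial DNA, at -0.20 ± 0.16.

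The 25 genes of mitoribosome assembly and rRNA modification had a median of 0.19 (range -0.92 to 0.75), with 11 of them, or 44.0%, below 0. With the block 2 of them rose in Mdr1+ cells, which is 8.00%, against 5.81% of all genes higher. Nsun4, an rRNA methyltransferase, had 53.2, 33.9 and 74.0 TMM-scaled CPM in Mdr1+ and 40.3, 20.9 and 35.3 in Mdr1- replicates, and was the higher in Mdr1+ within each number. Its log2 fold change was 0.72 ± 0.33 (edgeR adjusted p 0.45; 0.024 with the block). Dhx30, an RNA helicase of the assembly granules, was at 0.37 ± 0.17 (edgeR adjusted p 0.45; 0.034 with the block). Of 8 tested regulators of nuclear mitochondrial genes, with a median of 0.20 and 2 below 0, Pprc1 rose with the block. This coactivator of the PGC-1 family had 107, 111 and 153 in Mdr1+ and 78.8, 73.7 and 86.3 in Mdr1- replicates, with no overlap. Its log2 fold change was 0.63 ± 0.19 (edgeR adjusted p 0.18; 0.0085 with the block).

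Another pair of protein families were compared because they share the organelle or the function: respiratory complex I, some of whose subunits are made by the mitochondrial ribosome, and the cytosolic ribosome. The median log2 fold change of the 34 tested complex I genes was -0.36, with 32 below 0, and 8 of them fell with the block, or 23.5%, against 6.57% of all genes lower. Without the block edgeR called 0 of them, with 5 of the 34 at an unadjusted p under 0.05, against 11.9% of all genes. DESeq2 called 0. Ndufc2 had 18.4, 20.8 and 10.4 TMM-scaled CPM in Mdr1+ and 32.9, 30.6 and 29.4 in Mdr1- replicates, with no overlap, and a log2 fold change of -0.86 ± 0.27 (edgeR adjusted p 0.22; 0.029 with the block). Ndufb8, Ndufa11 and Ndufb9 also fell with the block, by 0.51, 0.57 and 0.51 on the log2 scale (edgeR adjusted p 0.024, 0.038 and 0.039; 0.43, 0.36 and 0.48 without the block). The 75 tested cytosolic ribosomal protein genes had a median of 0.32, with 6 below 0. Without the block edgeR called 0 of them, with 9 at an unadjusted p under 0.05, against 11.9% of all genes. DESeq2 called 1 of them, against 4.53% of all genes. With the block Rpl10 (0.73, edgeR adjusted p 0.017) and Rps24 (0.57, 0.035) rose and Rps27l (-1.10, 0.020) fell, at 0.14, 0.26 and 0.19 without it. These calls are 4% of the 75 genes, against 12.4% of all genes called with the block in either direction. This family has many near-identical copies, so its counts are uncertain. Mitoribosomal medians thus stood between these families, and the differences between families were not tested.

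**Figure D5:**
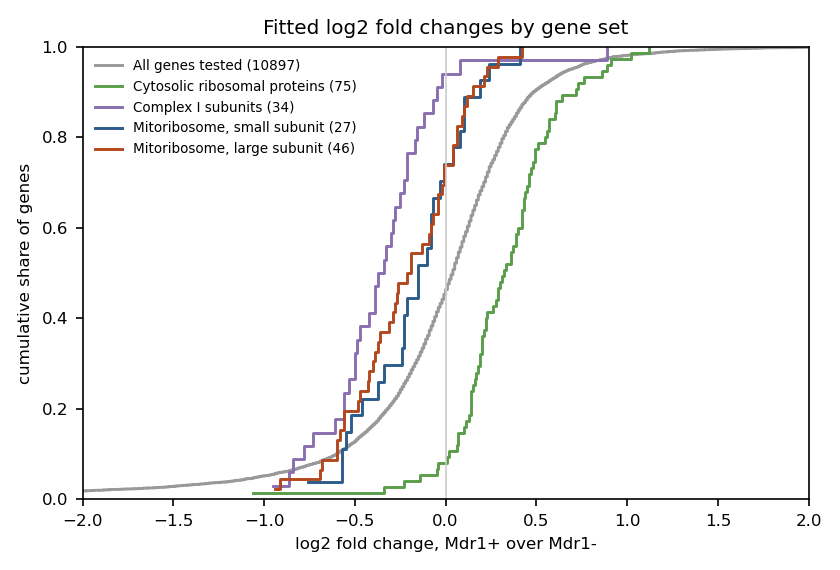
Cumulative share of genes against fitted log2 fold change, Mdr1+ over Mdr1-, for both mitoribosomal subunits, complex I, cytosolic ribosomal proteins and all genes tested; the number of genes is in the key and the axis is limited to 2 on either side. The mitoribosomal curves, with medians of -0.20 and -0.15, run between complex I at -0.36 and all genes at 0.04, and cytosolic ribosomal proteins lie to the right at 0.32.

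The median transcript of the tested members was 1316 bases long, against 3014 for all tested genes with a length. Among genes of up to 1500 bases, 44 members had a median log2 fold change of -0.17 and all 1459 genes one of -0.09. Among longer genes, 29 members had a median of -0.21 and all 8442 genes one of 0.05. Across the 73 members, Spearman's rho with the log2 fold change was 0.19 for length and 0.20 for mean log2 CPM, as a description over genes of the same libraries. Of 25 cell cycle genes, 22 fell in edgeR without the block, against 212 of all 10897 genes tested. The summed level of these 25 genes was 1230 to 1520 CPM in Mdr1+ against 4080 to 6530 in Mdr1- libraries. Their part in the members' values was not tested.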

How the data were processed

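The authors deposited 1 table of raw counts, with a row for each gene symbol. The submitters' processing notes name TopHat, HTSeq, DESeq2 and the build mm9; no version, annotation or strand setting is given in the sources used here. The columns of replicate 3 were first moved onto the gene names sorted ignoring case: as deposited, their Spearman correlations with replicates 1 and 2 over all genes were 0.424 to 0.460, and re-ordered 0.926 to 0.962. Unassigned reads stayed out (67.0% to 73.2% without a unique position and 13.2% to 19.7% in no feature, replicates 1 and 2).

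Groups came from the sample titles. Tests used edgeR 4.0.16 in R 4.3.3 (TMM scaling, filterByExpr by group, robust quasi-likelihood F test, no block, all 6 libraries), with adjusted p over 10897 genes, and were tested on simulated data. Recovery was required there only for changes larger than any member's, so the simulation does not show how well changes of the members' size are found. Alternatives were the replicate block, DESeq2 1.42.0, other scaling, no filter, libraries left out, subunits by structure and rows as deposited. Same-numbered libraries had correlations of deviations from the group means (log2 CPM, prior count 2) of 0.41, 0.57 and 0.21, all above 0.1, which was taken as pairing by number, although no label states it. Paired log2 ratios used a prior of 0.5 CPM. Replicates differed by more than sampling noise.

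The members, lists and tests were chosen with earlier results of these data known. Named were members past the threshold in either fit, the 5 lowest, 3 highest and 3 most abundant of each subunit and members of set role, and up to 4 genes of each other list; members without overlap, those called without replicate 3, and neighbouring genes were chosen after their values were seen. Of 15 mitochondrially encoded transcripts looked up by name, 0 were among the genes counted, so they could not be analysed here.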

Additional observations from a re-analysis of the deposited data

How the results depend on the processing

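All genes called numbered 242 in the unblocked edgeR fit, 1349 with the replicate block, 494 with DESeq2, 0 with replicate 3 on the rows as deposited, and 0 to 210 with a library or a number left out. With the block they numbered 1130, 651 and 2478 without replicates 1, 2 and 3, and 1370 in DESeq2 with the block. Of the large subunit, 2 were called with the block, 2 with the block without replicate 1, 11 without replicate 3 and 3 with DESeq2 and the block; of the small subunit, 4 were called with the block without replicate 3. The large-subunit median log2 fold change was -0.35 to -0.08 with libraries left out, -0.36 with the rows as deposited, and -0.32 and -0.27 with the block without replicates 1 and 3. The small-subunit median was -0.37 to -0.01, and -0.24 and -0.25 with the block without replicates 1 and 3. The cause of these moves was not tested. Of 576 values of 32 named members under 18 alternatives, 559 kept their side of the threshold, 17 passed it, all with the block, and 57 differed in sign without a call. Fits that leave 1 number out rest on 2 libraries a group. The shallow Mdr1+ library of replicate 3 limits members of low count.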
